A study of Mus musculus with 16 samples.

Results

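The tumor necrosis factor (TNF) superfamily was followed at the transcript level in mouse kidneys 24 h after unilateral ureteral obstruction (UUO), in which one ureter is closed and the kidney behind it is injured. Members were the genes of the deposited table named Tnf, Lta or Ltb, or carrying a Tnfsf or Tnfrsf number, and there were 35 of them, 14 ligands and 21 receptors, among 18132 genes. Kidney RNA came from mice labelled C57/BL6 that were wildtype (WT) or IL-33-deficient (labelled KO), the latter lacking the cytokine Il33 in every cell and, by the study's methods, backcrossed to C57BL/6J BomTac. The methods state one age for mice unless noted otherwise, and the labels give none. Each kidney was read on 1 Illumina BeadChip, an array on which the brightness of a probe follows the amount of its transcript. After UUO, 7 kidneys were WT (3 in a first set of mice, 4 in a second) and 5 were IL-33-deficient (2 in set 1, 3 in set 2). The controls were kidneys without treatment and not sham-operated ones, 2 of each genotype, and their set is not stated. Each array goes by its mouse number.

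Ligands of the superfamily are mostly membrane proteins that act on neighbouring cells or are shed, and each binds one or a few receptors. Receptors with a death domain can recruit caspases, those without one bind TRAF adaptors, and both kinds can activate the transcription factor NF-kB, while decoy receptors bind a ligand without passing on its signal. In the kidney, TNF and TWEAK are known as mediators of tubular injury and inflammation.

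Il33, the deleted gene, was read first as a check of the labels. Its log2 intensity was 7.62 and 8.02 in the WT controls and 6.88 and 6.85 in the IL-33-deficient controls. After UUO it was 8.39 at the lowest, 9.44 at the median and 9.57 at the highest in WT kidneys, and 6.88, 6.80, 7.02, 6.88 and 6.88 in IL-33-deficient kidneys 3821, 3822, 3897, 3898 and 3899. Every IL-33-deficient array lay below every WT array, so no array went against its labelled genotype. WT arrays 3818 and 3820, both of set 1, were the lowest WT arrays after UUO in 2 of 3 markers of tubular injury. Havcr1, a membrane protein that injured proximal tubules make, was at 12.84 and 10.42 there and between 13.12 and 13.95 on the other 5 WT arrays after UUO. Lcn2, an iron-binding protein released by injured tubules, was at 12.79 and 11.81, against 13.37 to 13.62 on those 5 arrays. In Krt20, the third, 3820 was lowest at 8.11, but 3818 at 9.68 was above array 3893 at 9.27. Results for several members are also given without this pair, an alternative chosen after seeing the data.

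Most members were dim. The median gene of an array had a log2 intensity of 7.05, close to the lowest values of the table. No measured background is given, so this median serves as a working line. Genes below it may not differ from background, and members above it on all 16 arrays are called above background. Of the 35 members, 20 were below this median on all 16 arrays, 9 were above it on some arrays, and 6 were above it on all 16, namely Tnfsf13b, Tnfrsf1a, Tnfrsf10b, Tnfrsf12a, Tnfrsf21 and Tnfrsf22. The other 29 members lay between 6.68 and 7.27 on every array. Over all 18132 genes, 41.4% were above the median on all arrays, against 17.1% of the members.

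After obstruction a few receptors were higher, and most ligands were near background in both treatments. In WT kidneys 2 of 35 members rose, the TWEAK receptor Tnfrsf12a and the TNF receptor Tnfrsf1a, at an adjusted p under 0.05 from limma, where 6.97% of all genes rose. No member fell, where 8.22% of all genes did. In IL-33-deficient kidneys 6 of 35 members rose, Tnfrsf12a, Tnfrsf1a, Tnfrsf22, Tnfsf13b, Tnfrsf10b and Tnfsf9, where 10.6% of all genes rose, and no member fell, where 11.2% did. The share of members that rose was 5.71% in WT kidneys, near that of all genes, and 17.1% in IL-33-deficient kidneys. These shares were not stable. Without array 3818 or without 3820, 4 members were called in WT kidneys. With UUO kidneys of set 2 alone, 5 members were called in each genotype. With set 1 alone, 1 was called in WT and 5 in IL-33-deficient kidneys. The median log2 difference of the 35 members was 0.03 in each genotype, against 0.00 over all genes. Among the 29 dim members the differences ran from -0.13 to 0.18 in WT and from -0.14 to 0.17 in IL-33-deficient kidneys. The deposited intensities carry a background, and an alternative that subtracts it enlarges log2 differences by construction.

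**Figure D1:**
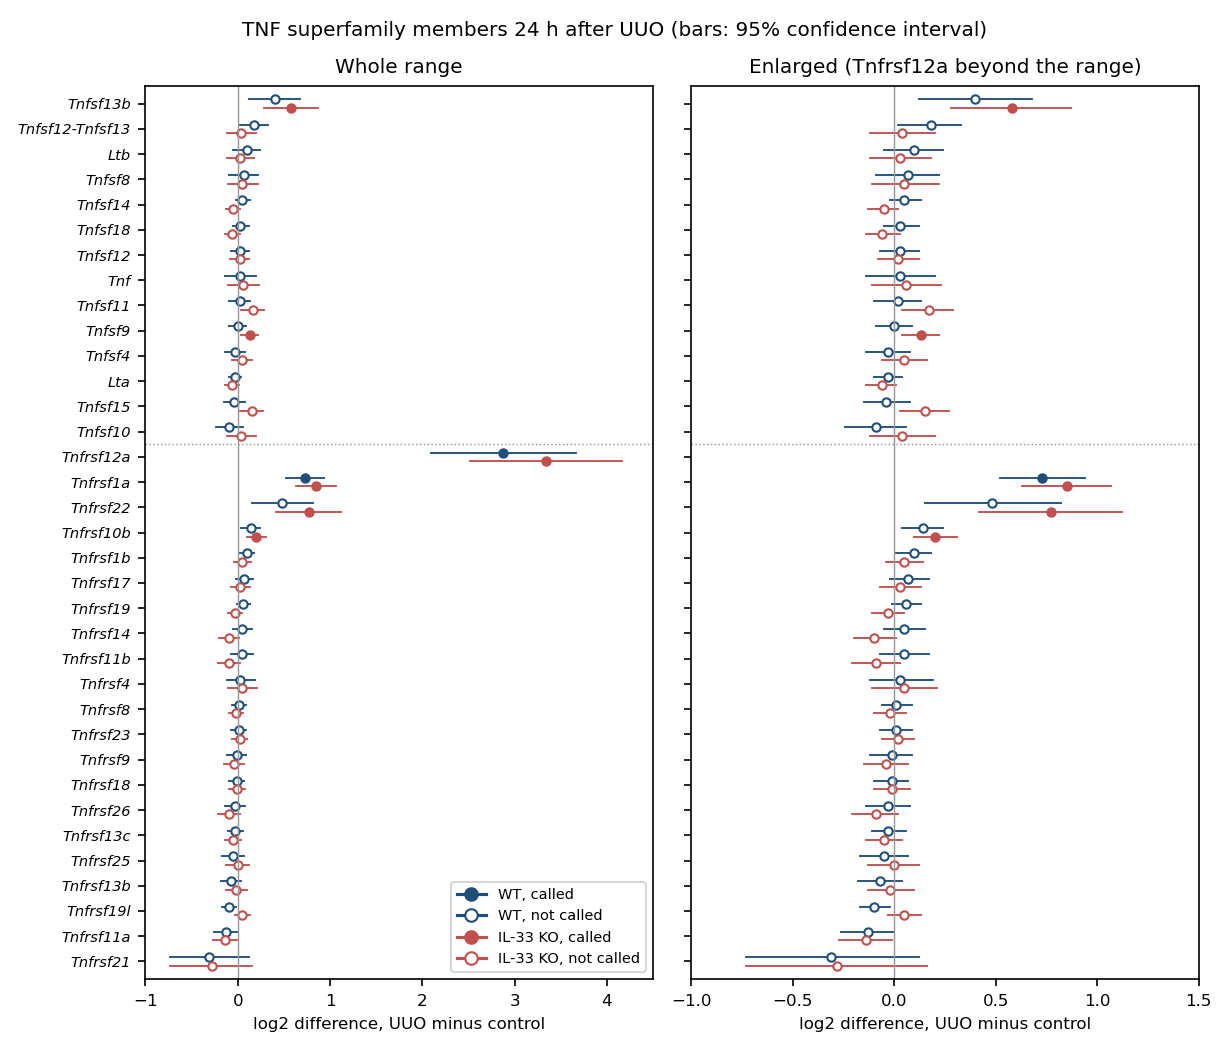
Log2 difference between UUO and control kidneys for the 35 members in WT (blue) and IL-33-deficient (red) kidneys, ligands above the dotted line and receptors below it, with 95% confidence intervals; filled points had an adjusted p under 0.05. Tnfrsf12a stands apart at 2.88 and 3.34, and the right panel enlarges the remaining members.

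Tnf encodes the founding ligand, made mainly by macrophages and T cells. Its log2 intensity was 6.91 and 6.93 in WT controls, and 6.81 at the lowest, 6.93 at the median and 7.15 at the highest in WT kidneys after UUO. In IL-33-deficient kidneys it was 6.90 and 6.92 in controls and 7.11, 6.97, 7.0, 6.82 and 6.94 after UUO. Array 3819 of the WT and array 3821 of the IL-33-deficient kidneys, both of set 1, were highest, and control and UUO values overlapped in both genotypes. The difference was 0.03 (95% confidence interval -0.14 to 0.20) in WT and 0.06 (-0.11 to 0.23) in IL-33-deficient kidneys, with adjusted p = 0.881 and 0.708.

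Lta and Ltb, the lymphotoxins, which organize lymphoid tissue, are neighbours of Tnf in the RefSeq annotation. Lta stood at 6.91 and 6.96 in WT controls and at 6.86, 6.90 and 6.96 (lowest, median, highest) after UUO, and at 6.95 and 6.95 in IL-33-deficient controls and 6.91, 6.90, 6.87, 6.85 and 6.91 after UUO. Ltb stood at 6.92 and 6.94 in WT controls and at 6.96, 7.03 and 7.12 after UUO, and at 7.01 and 6.98 in IL-33-deficient controls and 6.81, 7.08, 7.04, 7.0 and 7.18 after UUO. The 7 WT values of Ltb after UUO were all above the controls, while those of the IL-33-deficient kidneys lay on both sides of theirs. For Lta, the WT groups overlapped and the 5 IL-33-deficient values after UUO were all below the controls. Neither gene passed the test in either genotype (adjusted p from 0.269 to 0.860).

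Tnfsf12 encodes TWEAK, the ligand of the receptor Tnfrsf12a. Its values were 6.77 and 6.85 in WT controls and 6.77, 6.84 and 6.90 at the lowest, median and highest WT array after UUO. In IL-33-deficient kidneys they were 6.81 and 6.69 in controls and 6.81, 6.79, 6.68, 6.81 and 6.79 after UUO. All 16 arrays were below the median gene and the groups overlapped. The difference was 0.03 (95% confidence interval -0.07 to 0.12) in WT and 0.02 (-0.08 to 0.12) in IL-33-deficient kidneys. Another member entry, Tnfsf12-Tnfsf13, also carries the name of this gene and was above the median gene on 8 of 16 arrays. It was at 6.91 and 6.87 in WT controls and from 6.98 to 7.21 in WT kidneys after UUO. Its difference was 0.18 in WT (adjusted p = 0.126 from limma) and 0.04 in IL-33-deficient kidneys.

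Tnfsf10 encodes TRAIL, which binds the death receptor Tnfrsf10b and the decoys Tnfrsf22 and Tnfrsf23. It was at 6.94 and 7.01 in WT controls, at 6.75, 6.88 and 7.08 after UUO (lowest, median, highest), at 6.87 and 6.95 in IL-33-deficient controls and at 6.96, 6.86, 6.88, 6.97 and 7.08 after UUO. Tnfsf11, or RANKL, which drives osteoclast formation through Tnfrsf11a, was at 7.0 and 6.94 in WT controls, at 6.91, 6.99 and 7.05 after UUO, at 6.80 and 6.89 in IL-33-deficient controls and at 6.99, 7.12, 6.89, 7.05 and 7.01 after UUO. Control and UUO values of both ligands overlapped in both genotypes, for Tnfsf11 in IL-33-deficient kidneys only through arrays 3814 and 3897. Tnfsf11 there had a difference of 0.17 (standard error 0.06, adjusted p = 0.0537). It passed the test after median centring (adjusted p = 0.0422), with a trend in the variance prior (adjusted p = 0.0462), with background subtracted, where the difference was 0.48 (adjusted p = 0.0326), and without array 3897, with adjusted p from 0.0171 to 0.375 when single arrays were left out.

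Tnfsf9, the ligand of the T cell costimulator 4-1BB, was at 6.87 and 6.90 in WT controls and at 6.82, 6.87 and 6.97 at the lowest, median and highest WT array after UUO. In IL-33-deficient kidneys it was at 6.77 and 6.87 in controls and at 6.95, 6.94, 6.95, 6.92 and 6.97 after UUO, all 5 above both controls. Tnfsf9 rose there by 0.13 (standard error 0.04, adjusted p = 0.0451), within the range of background intensities. The call was lost in each set of mice alone (adjusted p = 0.278 in set 1 and 0.0805 in set 2) and without any single array of the comparison other than control 3814 (adjusted p from 0.0444 to 0.432), the smallest difference being 0.08, without control 3813. With background subtracted the difference was 0.41. In WT kidneys the difference was 0.00.

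Tnfsf13b encodes BAFF, a survival factor for B cells that is made by myeloid and stromal cells, and it was the only ligand above the median gene on all 16 arrays. WT controls had log2 intensities of 7.67 and 7.67, and WT kidneys after UUO had 7.86 at the lowest, 8.07 at the median and 8.38 at the highest. IL-33-deficient controls had 7.55 and 7.64, and kidneys 3821, 3822, 3897, 3898 and 3899 had 8.31, 8.40, 8.18, 8.13 and 7.84. Every UUO array was above every control of its genotype, and the highest value of each genotype came from set 1. Tnfsf13b rose by 0.58 (standard error 0.14, adjusted p = 0.00638) in IL-33-deficient kidneys, and without control 3813 the adjusted p was 0.0784. In WT kidneys the difference was 0.40 (standard error 0.13, adjusted p = 0.0536), and with UUO kidneys of set 1 alone it was 0.54 (adjusted p = 0.0464) and of set 2 alone 0.30 (adjusted p = 0.0413). It did not pass without the pair 3818 and 3820, at 0.38 (adjusted p = 0.0721), with median centring (0.0621), without normalization (0.0670) or with WT arrays fitted alone (0.0683). It passed with a trend in the variance prior (adjusted p = 0.0461), among brighter genes (0.0309) and with array weights (0.0357). Without WT array 3894 or 3895 it also passed the test, with adjusted p from 0.0422 to 0.254 over the arrays left out. With background subtracted the differences were 0.61 in WT (adjusted p = 0.0351) and 0.87 in IL-33-deficient kidneys. The difference between the genotypes in this response was 0.18 (95% confidence interval -0.23 to 0.58). Its receptors Tnfrsf13b, Tnfrsf13c and Tnfrsf17, which B-lineage cells carry, were below the median gene on all 16 arrays.

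Among receptors, Tnfrsf12a (Fn14), which binds TWEAK and signals through TRAF adaptors without a death domain, had the largest difference of any member in both genotypes. Log2 intensities were 9.29 and 8.77 in WT controls, and 10.75 at the lowest, 12.27 at the median and 12.49 at the highest in WT kidneys after UUO. They were 8.30 and 8.80 in IL-33-deficient controls and 11.81, 11.95, 11.95, 12 and 11.74 after UUO. All 12 UUO arrays lay above all 4 controls, and the lowest were the WT arrays 3818 at 10.75 and 3820 at 11.18, which were also lowest in Havcr1 and Lcn2. Tnfrsf12a rose by 2.88 (standard error 0.37, adjusted p = 0.000227), or 7.38-fold, in WT kidneys and by 3.34 (standard error 0.38, adjusted p = 4.00e-05), or 10.1-fold, in IL-33-deficient kidneys. Without the pair 3818 and 3820 the WT difference was 3.26, and with UUO kidneys of set 1 alone it was 2.44 (adjusted p = 0.0631). Whether the extent of tubular injury had a part in the spread of Tnfrsf12a was not tested.

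Tnfrsf1a encodes TNFR1, the death domain receptor of TNF and lymphotoxin alpha on most cell types. It was at 7.44 and 7.31 in WT controls and, after UUO, at 7.81 at the lowest, 8.12 at the median and 8.32 at the highest. IL-33-deficient controls were at 7.26 and 7.21 and the kidneys after UUO at 8.10, 8.06, 8.12, 8.09 and 8.07. UUO and control arrays did not overlap, WT arrays 3818 and 3820 were again lowest among the UUO arrays, and the 5 IL-33-deficient values lay within 0.06 of each other. Tnfrsf1a rose by 0.73 (standard error 0.10, adjusted p = 0.000342) in WT and by 0.85 (standard error 0.10, adjusted p = 5.98e-05) in IL-33-deficient kidneys. With WT kidneys of set 1 alone after UUO the difference was 0.63 (adjusted p = 0.0600), and with background subtracted the differences were 1.18 in WT and 1.44 in IL-33-deficient kidneys. Tnfrsf1b, the TNF receptor of leukocytes and endothelium, which lacks a death domain, was at 6.83 and 6.78 in WT controls and at 6.82, 6.90 and 6.93 after UUO, and at 6.84 and 6.78 in IL-33-deficient controls and at 6.91, 6.91, 6.77, 6.84 and 6.85 after UUO. All 16 values were below the median gene, groups overlapped, and the differences of 0.10 and 0.05 did not pass the test (adjusted p = 0.145 and 0.489).

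The stretches just before the start of transcription are shown for the 3 members above background that moved most among those with a RefSeq promoter entry and for Tnf, whose level stayed near background, to set their sequences side by side. They come from GRCm38.p6, run 5′ to 3′ along the gene for 250 bases up to its start, and capitals mark any of 4 motifs searched on both strands, AP-1 (TGANTCA), the TATA box (TATAAA), the SP1 box (GGGCGG) and the NF-kB consensus.
Tnfrsf12a, chr17:23677450-23677699, minus strand: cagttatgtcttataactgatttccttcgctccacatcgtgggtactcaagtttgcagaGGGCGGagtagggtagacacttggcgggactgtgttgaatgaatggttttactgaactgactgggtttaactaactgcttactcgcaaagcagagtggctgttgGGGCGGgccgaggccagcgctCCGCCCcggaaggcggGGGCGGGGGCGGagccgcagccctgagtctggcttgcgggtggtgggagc
Tnfrsf1a, chr6:125349473-125349722, plus strand: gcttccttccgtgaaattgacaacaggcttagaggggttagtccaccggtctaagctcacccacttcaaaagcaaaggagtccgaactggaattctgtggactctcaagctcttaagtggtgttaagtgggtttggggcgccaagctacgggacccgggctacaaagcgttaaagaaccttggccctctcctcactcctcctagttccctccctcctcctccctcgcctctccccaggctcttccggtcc
Tnfsf13b, chr8:10006383-10006632, plus strand: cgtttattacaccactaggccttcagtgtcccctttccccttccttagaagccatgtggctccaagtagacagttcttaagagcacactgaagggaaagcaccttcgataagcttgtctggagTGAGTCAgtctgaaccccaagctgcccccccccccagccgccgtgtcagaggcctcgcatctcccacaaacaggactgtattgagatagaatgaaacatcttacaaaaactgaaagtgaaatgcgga
Tnf, chr17:35202008-35202257, minus strand: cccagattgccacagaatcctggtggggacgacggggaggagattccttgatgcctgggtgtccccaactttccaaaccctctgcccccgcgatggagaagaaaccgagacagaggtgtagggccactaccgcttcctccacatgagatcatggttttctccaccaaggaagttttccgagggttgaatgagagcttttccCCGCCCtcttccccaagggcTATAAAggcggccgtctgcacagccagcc
Tnfrsf12a held 5 SP1 boxes, at 191, 87, 66, 50 and 44 bases before the start. Tnfsf13b held 1 AP-1 motif at 127 bases in the second of its 2 entries, the one shown, and none of the 4 motifs in the first, and Tnf a TATA box at 29 and an SP1 box at 49 bases. Tnfrsf1a held none of the 4. Promoter entries were matched for 26 of the 35 members, with 30 entries between them. Of these entries 4 held the NF-kB consensus, 4 AP-1, 6 the TATA box and 11 the SP1 box (13.3%, 13.3%, 20% and 36.7%), against 7.25%, 6.75%, 12.4% and 32.7% of 32851 RefSeq promoter entries. A match describes the letters and not a bound site. Tnfrsf22, Tnfrsf10b and Tnfsf9 had no entry.

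Tnfrsf10b, the TRAIL receptor with a death domain, was at 7.16 and 7.15 in WT controls and at 7.24, 7.30 and 7.35 at the lowest, median and highest WT array after UUO. IL-33-deficient kidneys had 7.11 and 7.14 in controls and 7.28, 7.41, 7.38, 7.23 and 7.35 after UUO. The groups did not overlap in either genotype, though all values were within 0.30 of each other and close to the median gene. Tnfrsf10b rose by 0.20 (standard error 0.05, adjusted p = 0.00574) in IL-33-deficient kidneys, where leaving out control 3813 gave an adjusted p of 0.0767, and had a difference of 0.14 (standard error 0.05, adjusted p = 0.0547) in WT kidneys. The WT difference passed the test without array 3818 or 3820, with adjusted p from 0.0433 to 0.286 over the arrays left out. With UUO kidneys of set 1 alone it was 0.11 (adjusted p = 0.354) and of set 2 alone 0.16 (adjusted p = 0.0423). With background subtracted the differences were 0.30 in WT (adjusted p = 0.0766) and 0.44 in IL-33-deficient kidneys.

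Tnfrsf22, a mouse decoy receptor for TRAIL that has no working death domain, was at 7.10 and 7.07 in WT controls and, after UUO, at 7.14 at the lowest, 7.62 at the median and 7.87 at the highest. It was at 7.12 and 7.07 in IL-33-deficient controls and at 8.08, 8.03, 7.77, 7.79 and 7.63 after UUO. WT arrays 3820 at 7.14 and 3818 at 7.38 were the lowest after UUO, the former just above the controls, and the highest values were those of IL-33-deficient kidneys of set 1. Tnfrsf22 rose by 0.77 (standard error 0.16, adjusted p = 0.00307) in IL-33-deficient kidneys. In WT kidneys the difference was 0.48 (standard error 0.16, adjusted p = 0.0504), and without the pair 3818 and 3820 it was 0.61 (adjusted p = 0.00133). With UUO kidneys of set 1 alone it was 0.37 (adjusted p = 0.366) and of set 2 alone 0.57 (adjusted p = 0.000402), and with WT arrays fitted alone the adjusted p was 0.110. Leaving out either array alone also gave a call, with adjusted p from 0.00601 to 0.265 over all arrays left out. With background subtracted the differences were 0.95 in WT (adjusted p = 0.0190) and 1.43 in IL-33-deficient kidneys. The WT difference also passed among brighter genes (adjusted p = 0.0276), with a trend in the variance prior (0.0358) and with array weights (0.00511). The difference between the genotypes in the response was 0.28 (95% confidence interval -0.20 to 0.77). Tnfrsf22 lies between its relatives Tnfrsf23 and Tnfrsf26 in the annotation, and whether its probe also reads them was not tested. Both relatives were below the median gene on all 16 arrays.

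Tnfrsf11b, or osteoprotegerin, a soluble decoy for RANKL and TRAIL, was at 6.81 and 6.82 in WT controls, at 6.72, 6.92 and 6.93 after UUO (lowest, median, highest), at 7.01 and 6.92 in IL-33-deficient controls and at 6.86, 6.88, 6.95, 6.83 and 6.86 after UUO. Values overlapped in both genotypes and the differences of 0.05 and -0.09 did not pass the test. Tnfrsf21, the death domain receptor DR6, was looked at after its values were seen, as a member above background that did not rise. Its log2 intensity was 10.65 and 10.75 in WT controls and 10.00, 10.25 and 10.80 after UUO, and 10.48 and 10.18 in IL-33-deficient controls and 10.33, 9.87, 10.02, 9.81 and 10.22 after UUO. WT arrays 3818, 3820 and 3894 were level with the controls at 10.67, 10.80 and 10.72, and the other 4 were lower. The differences of -0.31 (95% confidence interval -0.73 to 0.12) and -0.28 (-0.73 to 0.16) did not pass the test.

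**Figure D2:**
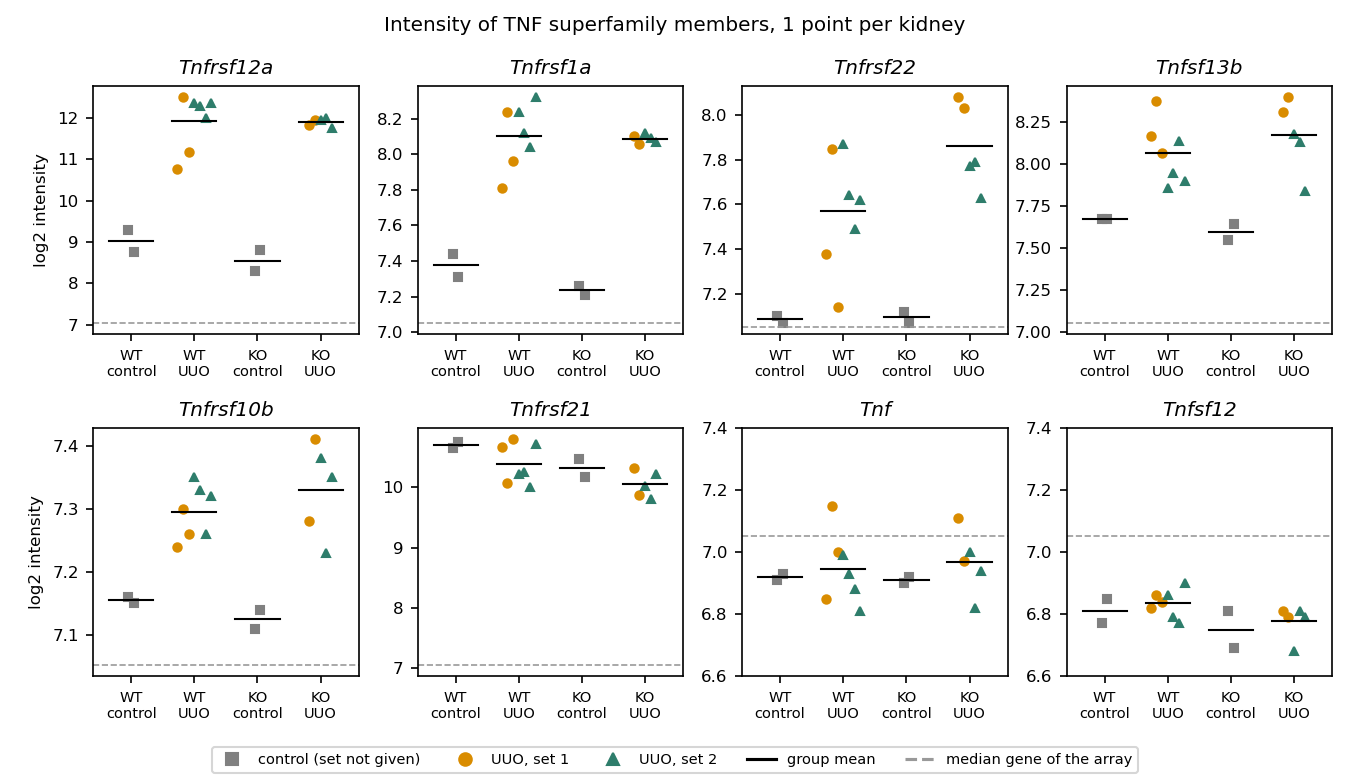
Log2 intensity of 8 members, 1 point per kidney, by genotype and treatment, with controls as grey squares, UUO kidneys of set 1 as orange circles and of set 2 as green triangles, the group mean as a black line and the median gene of the array, at 7.05, as a dashed line. The group means of Tnfrsf12a, Tnfrsf1a, Tnfrsf22, Tnfsf13b and Tnfrsf10b are higher after UUO than in controls in both genotypes, whereas Tnf and Tnfsf12 stay near background.

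Between the genotypes after UUO, no member passed limma with the study's threshold. Of all genes 0.0110% did, namely Il33 and Acta2. The threshold asks for p below 0.05 before and 0.25 after adjustment, with more than a 1.3-fold change. With the set of mice as a block 1 gene passed, lower in IL-33-deficient kidneys, so the call of Acta2 was lost. The count was not stable, with 3 genes under a variance trend, 80 with array weights, 168 among brighter genes, 127 with 4 groups in the model, and 0 in set 1 and 81 in set 2 alone. It was 309 without array 3819, 94 without 3899, 31 without 3820, 6 without 3818, 43 without 3818 and 3820, and 1 without any other array. At an unadjusted p under 0.05 alone there were 4 of 35 members and 1874 of 18132 genes. The 4 were Tnfrsf19l and Tnfrsf8, which had the smallest p, and Tnfrsf22 and Tnfrsf21. The median difference of the members was 0.00 and that of all genes 0.00.

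Tnfrsf19l is an older name for Relt, a receptor of lymphoid tissue, which also has an entry of its own in the table. It was at 6.87 and 6.86 in WT controls and at 6.75, 6.78 and 6.79 after UUO, and at 6.84 and 6.77 in IL-33-deficient controls and at 6.88, 6.93, 6.82, 6.83 and 6.81 after UUO. All 5 IL-33-deficient values after UUO were above all 7 WT values, by small steps within the background range. The difference was 0.08 (95% confidence interval 0.02 to 0.14, adjusted p = 0.333), and the exact two-sided permutation test gave p = 0.00126, the smallest that 792 splits allow. The splits ignore the sets of mice, and the p is not adjusted for the choice of the members with the smallest p among 35, as for Tnfrsf8. Within set 1 it was 0.14 and within set 2 0.04. The Relt entry itself differed by 0.00 (95% confidence interval -0.08 to 0.07).

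Tnfrsf8, or CD30, a receptor of activated lymphocytes, was at 6.83 and 6.85 in WT controls and at 6.80, 6.84 and 6.92 after UUO, and at 6.80 and 6.81 in IL-33-deficient controls and at 6.77, 6.79, 6.77, 6.84 and 6.75 after UUO. The genotypes overlapped, and the difference was -0.07 (95% confidence interval -0.13 to -0.01, adjusted p = 0.428, p = 0.0152 by exact permutation). Of the members above background, Tnfrsf22 differed by 0.29 (95% confidence interval 0.02 to 0.56, adjusted p = 0.446), with 0.59 within set 1 and 0.08 within set 2, and Tnfrsf21 by -0.35 (-0.68 to -0.01, adjusted p = 0.467), with -0.42 and -0.29. Without the pair 3818 and 3820 the differences were 0.17 (adjusted p = 0.627) and -0.21 (adjusted p = 0.677). Their values overlapped between the genotypes.

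The receptors with the largest response showed no difference between genotypes that passed the test. For Tnfrsf12a it was -0.02 (95% confidence interval -0.63 to 0.58), with 0.41 within set 1, which holds WT arrays 3818 and 3820, and -0.35 within set 2. Without these 2 arrays it was -0.40 (standard error 0.08, adjusted p = 0.172), which passes the study's threshold. This alternative removes the 2 lowest WT values and so raises the WT mean by its construction. The interval of the full comparison is wide enough to hold both values. Tnfrsf1a differed by -0.02 (-0.18 to 0.15), Tnfsf13b by 0.10 (-0.12 to 0.33) and Tnf by 0.02 (-0.11 to 0.15). Without the pair Tnfrsf1a differed by -0.10 and Tnfsf13b by 0.13.

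**Figure D3:**
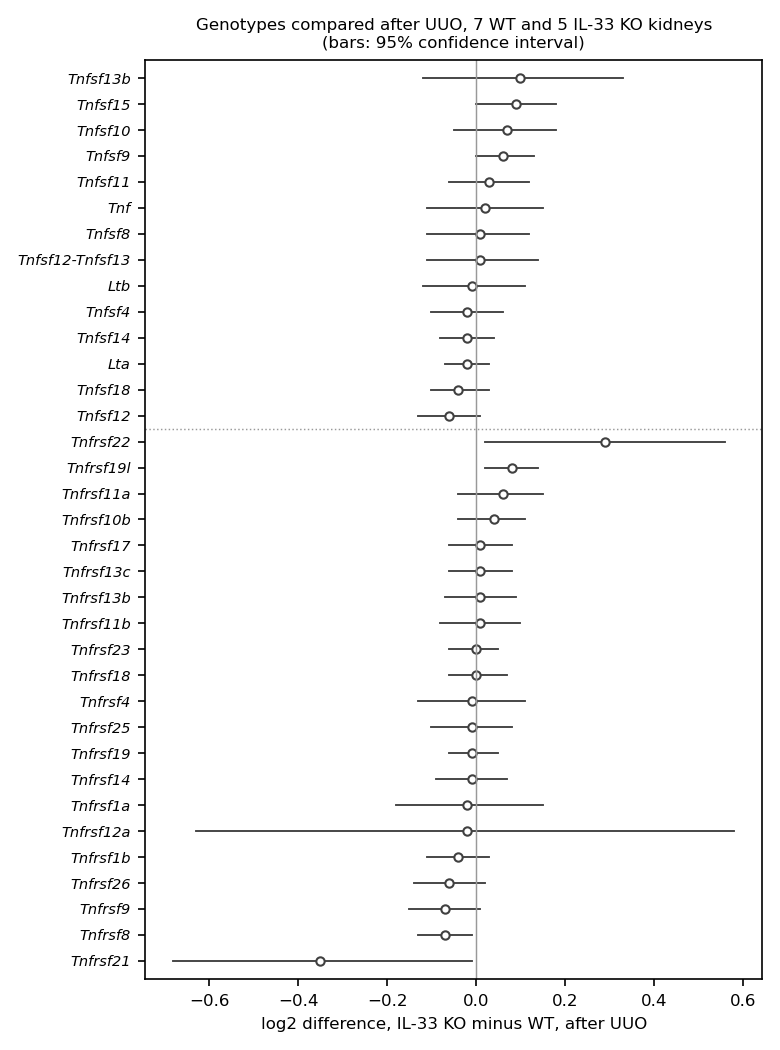
Log2 difference between 5 IL-33-deficient and 7 WT kidneys after UUO for the 35 members, ligands above the dotted line and receptors below it, with 95% confidence intervals; open points did not pass the threshold. The widest interval is that of Tnfrsf12a, from -0.63 to 0.58.

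The genotypes did not differ in the size of the response of any member at an adjusted p under 0.05 from limma, which 0% of all genes reached. At an unadjusted p under 0.05 there were 3 of 35 members, Tnfrsf14, Tnfrsf19l and Tnfsf15, all dim, and 860 of 18132 genes. For Tnfrsf12a the difference in response was 0.46 (95% confidence interval -0.68 to 1.59) and for Tnfrsf1a 0.12 (-0.18 to 0.43), so that genes called in only one genotype are not shown to differ between them. Control kidneys of the genotypes likewise gave no member at an adjusted p under 0.05, which 0% of genes reached, and 1 member, Tnfrsf14, and 664 genes at an unadjusted p under 0.05. With 2 controls of each genotype these intervals are wide, as for Tnfrsf12a at -0.48 (-1.46 to 0.50).

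Family members under other symbols did not pass the test. Of 12 such genes, among them the death receptor Fas, the lymphotoxin beta receptor Ltbr and Cd40, 0 were called in WT and 0 in IL-33-deficient kidneys, with 1 and 2 at an unadjusted p under 0.05. Of all 18132 genes, 6.97% rose and 8.22% fell in WT kidneys, and in IL-33-deficient ones 10.6% rose and 11.2% fell, with 4716 and 5572 at an unadjusted p under 0.05. Differences of the 12 ran from -0.08 to 0.21 and from -0.10 to 0.24. Between the genotypes after UUO, limma called 0 genes in this list and 0 in each of the adaptor, NF-kB and TNF-induced lists, with 0, 1, 3 and 2 at an unadjusted p under 0.05, against 1874 of all genes.

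Of 18 measured adaptors and death-domain proteins, 3 rose and 2 fell in WT kidneys, where 6.97% of all genes rose and 8.22% fell. In IL-33-deficient kidneys 3 rose and 2 fell, where 10.6% of all genes rose and 11.2% fell. Map3k14, or NIK, the kinase of the noncanonical NF-kB pathway, was at 7.72 and 7.92 in WT controls and at 8.12, 8.43 and 8.70 after UUO, and at 7.88 and 7.62 in IL-33-deficient controls and at 8.14, 8.22, 8.53, 8.56 and 8.57 after UUO. No control reached any UUO value, and Map3k14 rose by 0.61 (adjusted p = 0.0131) and 0.65 (adjusted p = 0.00661). Casp8, the caspase that death receptors activate, rose by 0.44 in WT kidneys (adjusted p = 0.0199), and Birc2, a ubiquitin ligase of receptor complexes, by 0.44 in IL-33-deficient kidneys (adjusted p = 0.0110). Traf4 fell by 0.41 (adjusted p = 0.00687) and 0.35 (adjusted p = 0.0148).

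Of 13 NF-kB components, 6 rose and 0 fell in WT kidneys, with a median difference of 0.26, where 6.97% of all genes rose and 8.22% fell. In IL-33-deficient kidneys 9 rose and 1 fell, with a median of 0.58, where 10.6% of all genes rose and 11.2% fell. The median over all genes was 0.00 in each. Nfkbiz, an inducible nuclear cofactor of NF-kB, was at 8.33 and 8.01 in WT controls and at 8.68, 9.78 and 10.22 after UUO, and at 8.28 and 7.87 in IL-33-deficient controls and at 9.92, 9.87, 9.95, 9.90 and 9.73 after UUO. WT array 3818 was the lowest of the 12, and no UUO array overlapped the controls. Nfkbiz rose by 1.5 (adjusted p = 0.00152) in WT and 1.80 (adjusted p = 0.000244) in IL-33-deficient kidneys. Bcl3, a partner of the p50 and p52 subunits, rose by 1.28 and 1.36, and Nfkb1, which encodes p50, by 0.76 and 1.17. WT array 3818 stood near the WT controls in several genes of the list. It was at 8.70 in Nfkb1 (controls 8.64 and 8.58), 9.90 in Rela (9.82 and 9.75) and 7.23 in Relb (7.34 and 7.15). The gene that fell was Chuk, an IkB kinase, with -0.32 in IL-33-deficient kidneys. In WT kidneys Chuk was at 9.78 and 9.91 in controls and from 9.72 to 10.15 after UUO.

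Of 16 textbook TNF-induced genes, which other cytokines and injury signals also induce, 5 rose and 1 fell in WT kidneys, with a median difference of 0.23, where 6.97% of all genes rose and 8.22% fell. In IL-33-deficient kidneys 7 rose and 1 fell, with a median of 0.22, where 10.6% of all genes rose and 11.2% fell. Cxcl1, a chemokine that attracts neutrophils, was at 7.51 and 7.28 in WT controls and at 10.04, 10.80 and 11.94 after UUO, and at 7.28 and 7.13 in IL-33-deficient controls and at 10.90, 11.13, 11.20, 10.76 and 10.27 after UUO. Its lowest and highest values after UUO were both WT arrays of set 1, 3818 and 3819, and all 12 were above the controls. Cxcl1 rose by 3.57 (adjusted p = 5.05e-05) and 3.65 (adjusted p = 2.30e-05), Junb, a subunit of AP-1, by 1.73 and 2.03, and Icam1, an adhesion molecule for leukocytes, by 1.29 and 1.48. In Junb, WT array 3818 was at 8.02, near the WT controls at 7.89 and 7.72. The other WT arrays after UUO were between 9.45 and 10.38. Sod2, the mitochondrial superoxide dismutase, was the gene that fell, by 0.35 in WT and 0.65 in IL-33-deficient kidneys.

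**Figure D4:**
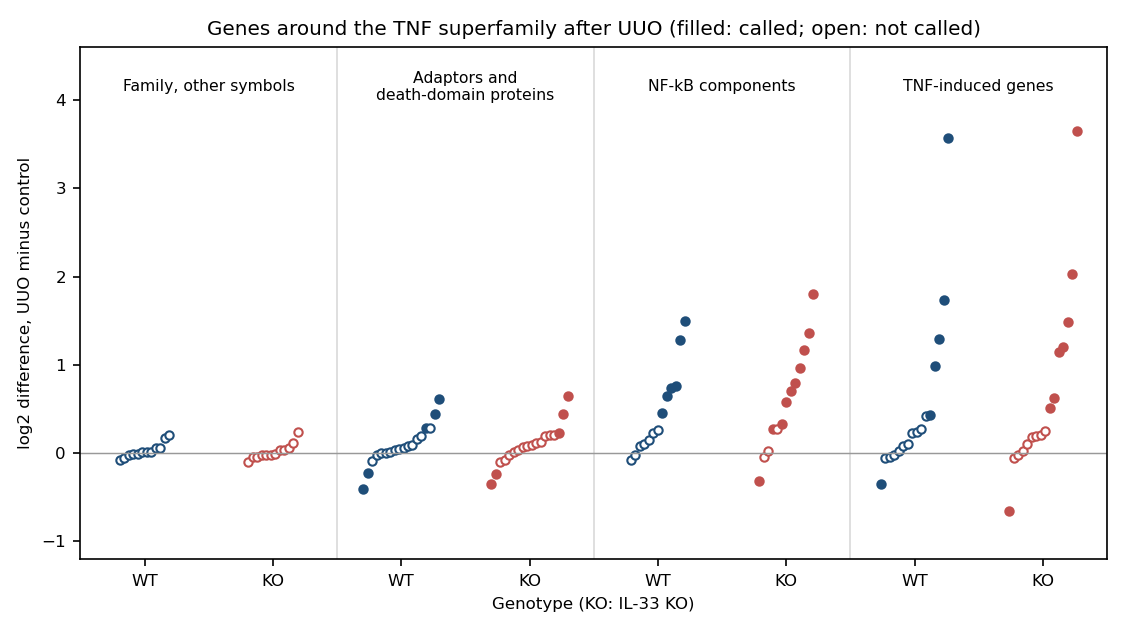
Log2 difference between UUO and control kidneys for the genes of 4 lists, in WT (blue) and IL-33-deficient (red) kidneys; filled points had an adjusted p under 0.05. None of 12 family members under other symbols is filled, against 6 and 9 higher of 13 NF-kB components, and the top points on the right are Cxcl1 at 3.57 and 3.65.

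Markers of cell types were read on the same arrays. In whole kidney RNA, a change in the number of cells of a type and a change in RNA per cell cannot be told apart. For most lists the gene that added most to the summed intensity, by group means, is named, but intensities of different probes do not rank transcripts. Counts of called markers stand beside 6.97% of all genes that rose and 8.22% that fell in WT kidneys, and 10.6% and 11.2% in IL-33-deficient kidneys. All 3 markers of tubular injury rose in both genotypes, and their summed intensity was 464 and 432 in WT controls, from 5249 to 29522 with a median of 24126 in WT kidneys after UUO, 444 and 478 in IL-33-deficient controls and 29241, 28973, 25967, 26080 and 22080 after UUO. Lcn2 added most in controls and Havcr1 after UUO. WT arrays 3820 at 5249 and 3818 at 15201 were the lowest after UUO. Krt20 was not above the median gene on every array. Of 6 markers of macrophages and monocytes, 2 rose and 1 fell in WT and 3 rose and 1 fell in IL-33-deficient kidneys. Their summed intensity was 1408 and 1364 in WT controls and from 1553 to 3828 with a median of 2997 after UUO, and 1308 and 1196 in IL-33-deficient controls and 4285, 3721, 3332, 3252 and 2715 after UUO. Lyz2 added most in controls and Cd14 after UUO. The lowest after UUO were again 3820 at 1553 and 3818 at 1942, and Itgam was not above the median gene on every array. Csf1r, a defining receptor of macrophages, was the marker that fell, by 0.41 and 0.36.

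Of 3 measured neutrophil markers, 1 rose in WT and 2 rose in IL-33-deficient kidneys, with summed intensities of 735 and 612 in WT controls, from 691 to 2096 with a median of 1849 after UUO, 550 and 373 in IL-33-deficient controls and 1734, 1535, 2604, 2386 and 1190 after UUO, to which S100a8 added most. WT array 3818, at 691, lay between the WT controls. S100a9 and Csf3r were not above the median gene on every array. Of 3 general leukocyte markers, 0 rose in WT and 2 rose in IL-33-deficient kidneys, from sums of 1561 and 1736 to a median of 2065 (1852 to 3444) and from 1582 and 1601 to 3429, 3392, 3135, 2953 and 2215, to which Laptm5 added most, while Ptprc, which defines leukocytes, was not above the median gene on every array. In each genotype 2 of these 3 had an unadjusted p under 0.05 from limma. Their median difference was 0.42 in WT and 0.93 in IL-33-deficient kidneys. None of 5 T and NK cell and 3 B cell markers was called by limma in either genotype (at an unadjusted p under 0.05, WT kidneys gave 0 and 1 of them and IL-33-deficient kidneys gave 0 and 0). None was above the median gene on every array, with sums on all arrays from 615 to 724 and from 352 to 386. The part that leukocytes had in the levels of Tnfsf13b, Tnfrsf1a and the genes induced by TNF was not tested.

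Among kidney cells, 3 of 4 fibroblast and pericyte markers rose in both genotypes, with sums of 1788 and 2030 in WT controls and a median of 2527 (1949 to 3218) after UUO, and of 1686 and 1741 and a median of 3828 (3634 to 3985) in IL-33-deficient kidneys, to which Acta2 added most. The other marker, Pdgfra, was not called, with differences of -0.24 in WT and -0.15 in IL-33-deficient kidneys. Of 4 measured proximal tubule markers, 0 fell in WT and 3 fell in IL-33-deficient kidneys, with sums of 27484 and 25960 against a median of 18104 (10806 to 27843) in WT and of 27227 and 25295 against a median of 9480 (7369 to 14389) in IL-33-deficient kidneys, to which Slc34a1 added most, and 2 had an unadjusted p under 0.05 in WT kidneys. Lrp2 was not above the median gene on every array. The highest WT values after UUO were those of arrays 3820 at 27843 and 3818 at 22471. Of 3 thick limb and distal tubule markers, 2 fell in WT and 1 fell in IL-33-deficient kidneys, of 3 collecting duct markers 2 fell in both, and of 4 endothelial markers 0 changed in WT (1 at an unadjusted p under 0.05) and 1, Tek, fell in IL-33-deficient kidneys. Umod and Slc34a1, markers of kidney tubules, were above the median gene on all 16 arrays. Sums ranged after UUO from 7794 to 19147 (median 10830) in WT and 9707 to 13590 (median 12118) in IL-33-deficient kidneys for the thick limb list, to which Umod added most, against 16262 to 21474 in the 4 controls. They ranged from 523 to 1143 and 555 to 671 for the collecting duct list, with Aqp2 adding most, against 1358 to 1642 in controls, with Aqp3 adding most, and from 1076 to 1203 and 1043 to 1194 for the endothelial list, with Tek adding most, against 1221 to 1276. The part of tubular cells in the levels of Tnfrsf12a and Tnfrsf1a was not tested.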

How the data were processed

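The authors deposited linear intensity values, 1 per gene, from arrays imported to R, already made alike between arrays by a method that is not stated (values of the same rank differed by a median of 0.708% and at most 9.83%). No background was subtracted and no detection p-values are given. The intensities were quantile-normalized, put on the log2 scale and fitted with limma 3.58.1 in R 4.3.3, with 1 mean per group over 16 arrays, and p-values were adjusted by Benjamini-Hochberg over 18132 genes. Genotypes after UUO were compared over the 12 UUO arrays, single members also by an exact two-sided permutation test. The controls carry no set, so set entered only as an alternative among UUO arrays. Members and lists were chosen with earlier results of these data known. Values are given for 12 members chosen by name, for those called, and for the 2 with the smallest p between genotypes, and list genes are the 3 with the largest difference among those called. Tnfrsf21, Chuk, Sod2 and the cell type markers named singly were picked after their values were seen. Symbols matched RefSeq for 33 members and synonyms for 2. Genes not found include Ly6g, Cd79a, Cubn, Tradd and Map3k5. Figures used matplotlib 3.10.9, and the code was tested on simulated data.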

Additional observations from a re-analysis of the deposited data

Results flagged for a closer look

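Arrays far from the others of their group were searched for in 32 groups of 16 members, where chance gives about 1 in 20. Tnfrsf1b, the leukocyte TNF receptor, was at 6.82 in WT array 3818 after UUO, against 6.89 to 6.93 on the other 6 arrays. Tnfsf12, the ligand TWEAK, was at 6.68 in IL-33-deficient array 3897 after UUO, against 6.79 to 6.81 on the other 4. Both genes were below the median gene on all 16 arrays. For Tnfrsf19l every WT array after UUO lay below the mean of its controls and every IL-33-deficient array above the mean of its own. Neither difference passed the test, at -0.10 in WT (adjusted p = 0.0865) and 0.05 in IL-33-deficient kidneys (adjusted p = 0.449), the latter from 0.01 to 0.09 when single arrays were left out. Control 3813, at 6.84, was above 3 of the 5 IL-33-deficient arrays after UUO. The difference between the genotypes in its response was 0.14 (95% confidence interval 0.03 to 0.25), with adjusted p = 0.973 from limma.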

How the results depend on the processing

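None of the alternatives reversed a called result of a member or of Il33, and the median of all genes moved by at most 0.01. Single list genes and cell type markers were not followed through the alternatives. In WT kidneys, 2 members were called after UUO, against 4 with background subtracted, 4 among brighter genes, 4 with a trend in the variance prior, 5 with array weights, 1 with UUO kidneys of set 1 alone, 5 with set 2 alone and 4 without 3818 and 3820, chosen after seeing the data. Of all genes, 1263 were higher and 1491 lower in WT, against totals of 1719 with a fold minimum, 188 with set 1, 4241 with set 2 and 1778 with 1 genotype fitted alone. In IL-33-deficient kidneys 6 members were called, against 7 with median centring (Tnfsf11 added), 8 each with background subtracted and with the trend (Tnfsf11 and Tnfsf15 added) and 4 with the fold minimum (without Tnfrsf10b and Tnfsf9). They numbered 5, without Tnfsf9, with set 1, with set 2 and with 1 genotype fitted alone. Among brighter genes 5 members were called as well, but Tnfsf9 was too dim to be tested there. Tnfsf15 was also called without array 3821 or 3898. Of all genes, 1916 were higher and 2039 lower there, against totals of 2594 with the fold minimum and 2258 with set 1. Between genotypes after UUO, the pair left out gave 1 member, Tnfrsf12a, and 43 genes, against 2 genes with all arrays, 168 among brighter genes, 80 with array weights, 1 at adjusted p under 0.05 alone, 1 with set as a block, 0 in set 1, 81 in set 2 and 127 with 4 groups in the model. The difference in response gave 0 genes, 2 with set 2 and 1 without the pair. Leaving out single arrays gave 2 to 4 members and 809 to 3578 genes in WT (809 without control 3812), 3 to 6 members and 2276 to 3798 genes in IL-33-deficient kidneys (3 without control 3813), 0 members and 1 to 309 genes between genotypes (309 without 3819), and 0 members and 0 to 1 genes for the difference in response. A control left alone in its group is assumed to vary like the other groups. Fewer arrays or genes tested are part of several alternatives, and other causes were not tested. With background subtracted, Tnfrsf12a differed by 3.09 in WT and 3.67 in IL-33-deficient kidneys, and Tnfrsf1a, Tnfrsf22, Tnfrsf10b, Tnfsf13b, Tnfsf9 and Tnfsf11 by the larger values given for them in the results, which subtraction brings by construction.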
